A study of Homo sapiens with 8 samples.

Results

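Of the NFYB peaks called in RH30 cells with the control guide sgCtrl2, 381 overlapped a peak of the other control guide, sgCtrl1, by at least 1 bp and overlapped no peak of either RH4 list. They are called RH30-only sites here. They made up 381 of the 2594 sgCtrl2 peaks that were also called with sgCtrl1 (14.7%, 95% exact interval 13.4 to 16.1%), and 381 of 22724 peaks in the 6 lists analysed. The other 2213 control-shared peaks did overlap an RH4 peak and are called RH4-shared sites. Membership rests on whether a peak was called in 4 lists, so presence in those lists is a description and not a finding. Position, genes, promoter sequence and the lists of the edited cells took no part in the choice. "RH30-only" means no call in RH4, and not that the factor was shown to be away from the site there.

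RH4 and RH30 are established cell lines from rhabdomyosarcoma, a tumour of muscle-like cells, and both express the PAX3-FOXO1 fusion gene. RH4 cells were uninfected and gave 1 library each for NFYB and NFYC. RH30 cells carried an inducible cytosine base editor, received a guide RNA with blasticidin selection and rapamycin to start editing, and were collected on day 8. The guides were sgCtrl1 and sgCtrl2, the controls, and sgCCAAT2a and sgCCAAT2b, which are directed at a CCAAT motif of the PAX3 promoter, and each gave 1 NFYB library. The libraries of the latter pair are called edited, although editing itself was not analysed here. All groups share the fusion gene, and all 4 RH30 groups share the editor and the drugs, so RH30 and RH4 differ in line, treatment and processing, which cannot be told apart. With 1 library per group no test between conditions was possible. Intervals are exact Clopper-Pearson 95% intervals and cover the counting of sites only. The 5 libraries titled RH30 carry RH4 both as source name and as cell line. They were grouped by title, which the design description goes with, and the contrast of RH30 with RH4 rests on that. Peak lists hold no expression, so the line labels could only be set against the presence of peaks. On chromosome Y, RH30-only sites were called while neither RH4 list had any peak there. What this says about the labels was not tested.

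NF-Y is a trimer in which NFYB and NFYC pair through histone folds and NFYA reads the motif CCAAT, or ATTGG on the other strand. It is best known at promoters, where the motif commonly lies a short way upstream of the transcription start, at genes of the cell cycle, lipid synthesis and protein folding. It is also found at distal and repeated sequences. CUT&RUN maps it by an antibody that brings a nuclease to the bound DNA, and a peak is a stretch where the released fragments pile up.

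The sequences below show CCAAT motifs under RH30-only sites, with CCAAT or ATTGG in capitals. They were taken from RefSeq promoters (GRCh38.p14), lie outside every protein-coding gene body, and are written 5' to 3' on the strand of the gene. Promoters were shown only where a motif lay upstream of the start and inside the peak, so the motif's presence in them is a matter of choice. The first 5 belong to the sites of highest place in the sgCtrl2 list, among those that qualify, which were also called in both edited lists.
H2BC11, chr6:27132846-27132976, minus strand: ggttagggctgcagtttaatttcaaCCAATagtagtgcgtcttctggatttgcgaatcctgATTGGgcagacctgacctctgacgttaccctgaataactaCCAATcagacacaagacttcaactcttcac
GSTO2, chr10:104269081-104269135, plus strand: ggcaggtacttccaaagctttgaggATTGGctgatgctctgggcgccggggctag
NUAK2, chr1:205321792-205321887, minus strand: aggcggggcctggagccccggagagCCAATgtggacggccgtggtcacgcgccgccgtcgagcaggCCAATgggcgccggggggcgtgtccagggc
MEAK7, chr16:84504735-84504909, minus strand: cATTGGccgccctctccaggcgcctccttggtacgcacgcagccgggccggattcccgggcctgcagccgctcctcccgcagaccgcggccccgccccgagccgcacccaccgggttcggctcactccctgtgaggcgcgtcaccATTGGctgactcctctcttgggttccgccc
ZNF440, chr19:11814183-11814237, plus strand: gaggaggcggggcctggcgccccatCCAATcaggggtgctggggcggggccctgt
H2BC11, a histone H2B gene, held 3 motifs between bases -156 and -76 from the start, MEAK7 and NUAK2 held 2 each, and GSTO2 and ZNF440 held 1. The next 5 were chosen in the same way among sites called in neither edited list.
APOLD1, chr12:12725697-12725751, plus strand: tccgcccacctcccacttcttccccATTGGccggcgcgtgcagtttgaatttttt
CATSPERG, chr19:38335581-38335635, plus strand: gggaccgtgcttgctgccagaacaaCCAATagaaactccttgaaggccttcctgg
ISL1, chr5:51383348-51383402, plus strand: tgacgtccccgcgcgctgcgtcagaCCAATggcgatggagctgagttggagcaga
SLC44A2, chr19:10602364-10602418, plus strand: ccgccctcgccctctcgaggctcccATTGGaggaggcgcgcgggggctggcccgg
TAF4, chr20:62065980-62066065, minus strand: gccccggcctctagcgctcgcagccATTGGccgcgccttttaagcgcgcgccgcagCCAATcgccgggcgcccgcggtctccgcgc
In this set TAF4, a subunit of the general transcription factor TFIID, held 2 motifs and the others 1. The last 3 lie at genes described further below, also in neither edited list.
SIX4, chr14:60724361-60724415, minus strand: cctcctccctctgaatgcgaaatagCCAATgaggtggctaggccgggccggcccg
PDGFRB, chr5:150155910-150155964, minus strand: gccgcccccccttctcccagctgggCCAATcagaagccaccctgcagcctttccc
PHGDH, chr1:119711838-119711892, plus strand: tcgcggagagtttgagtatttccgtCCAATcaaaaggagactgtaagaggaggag
The motif of ISL1 began 75 bases before the start, that of PDGFRB 94, that of PHGDH 71 and that of SIX4 39. Sites with and without a call in the edited cells thus both include promoters with an intact upstream CCAAT in the reference.

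Most RH30-only sites lay away from the ends of protein-coding genes, unlike the control sites shared with RH4. A site was placed at a gene end when it overlapped the 1000 bp on either side of either end of a protein-coding gene. That held for 128 of 381 RH30-only sites (33.6%, 28.9 to 38.6%) and for 1725 of 2213 RH4-shared sites (78.0%, 76.2 to 79.7%), against 43.4% of all 6687 sgCtrl2 peaks. A further 77 RH30-only sites (20.2%) lay inside a gene, 38 (9.97%) within 10 kb of one, 62 (16.3%) at 10 to 100 kb and 65 (17.1%) beyond 100 kb. Only the outermost ends of each gene were used, so sites at a further start within a gene body count as inside a gene. The last 11 (2.89%) were on unplaced or alternate sequences. Of RH4-shared sites, 12.2% lay inside a gene, 4.07% within 10 kb, 4.88% at 10 to 100 kb, 0.949% beyond 100 kb and 0 on other sequences. When a shared peak had to cover 50% of both peaks, 651 sites counted as RH30-only and 60.5% of them lay at a gene end. Median widths were 411 bp for RH4 NFYB, 190.5 bp for RH4 NFYC and 197 bp for sgCtrl2 peaks, and the part of width in this change was not tested.

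**Figure D1:**
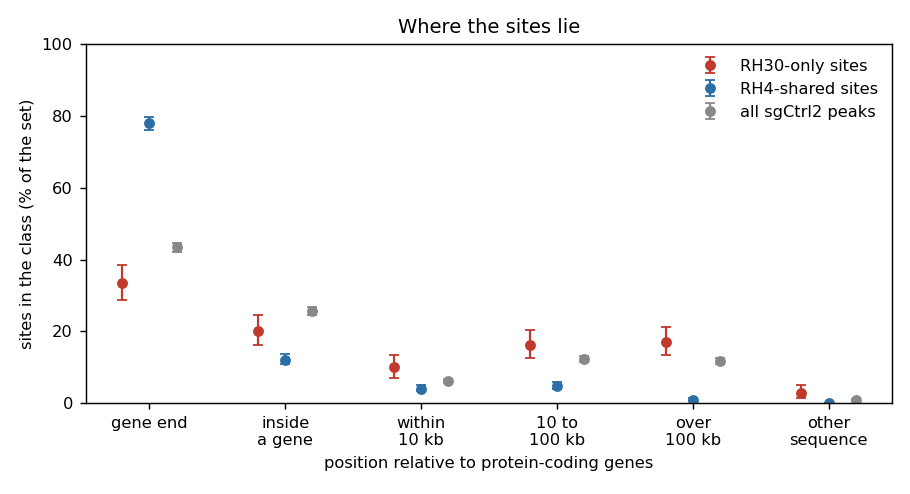
Share of sites (y axis, percent of the set) in each class of position relative to protein-coding genes (x axis) for RH30-only sites, RH4-shared sites and all sgCtrl2 peaks; bars are exact 95% intervals over sites. RH30-only sites stand at 33.6% at gene ends against 78.0% for RH4-shared sites, and at 17.1% beyond 100 kb against 0.949%.

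Read the other way, the farther a control-shared site lay from a gene, the more often RH4 lacked a call there. RH30-only sites were 6.91% (5.80 to 8.16%) of the 1853 control-shared sites at gene ends and 22.3% of the 346 inside genes. They were 29.7% of the 128 within 10 kb, 36.5% of the 170 at 10 to 100 kb and 75.6% (65.1 to 84.2%) of the 86 beyond 100 kb. All 11 control-shared sites on unplaced or alternate sequences were RH30-only, where RH4 had 1 NFYB peak and 2 NFYC peaks in all. The RH4 entries carry a further set of coordinates, as a conversion between builds leaves, and whether peaks were lost in such a step was not tested.

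RH30-only sites at promoters also had centres shifted a little downstream. Offsets are signed, with negative values upstream of the start, and distances regardless of side were not compared. Among sites whose centre lay within 1000 bp of a listed start, the median centre was at -45.5 bp in 114 RH30-only sites (quartiles -110.5 and 19.75) and at -91.0 bp in 1608 RH4-shared sites (quartiles -158.0 and -44.0). The stretch of 200 bp before the start held 53.5% of the former and 71.8% of the latter. The quartiles overlap, so single sites of the sets could not be told apart by position.

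The RH30-only sites stood lower in the sgCtrl2 list. The files hold no peak heights, so the place in the file stands in for rank. The median place was 2941 of 6687 (14 to 6662) for RH30-only and 1222 for RH4-shared sites. With the list divided into 4 equal bands by place, bands 1 to 4 held 53, 193, 104 and 31 RH30-only sites and 1456, 686, 61 and 10 RH4-shared sites. Of all sgCtrl2 peaks, 38.8% overlapped an sgCtrl1 peak, and the median overlap with it was 154 bp at RH30-only sites and 170 bp at RH4-shared sites.

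Few sites were near misses. An RH4 peak lay within 1000 bp of 19 RH30-only sites and within 10 kb of 42. The median distance to the nearest RH4 peak was 150 kb, 48 sites were over 1 Mb away, and 13 were on sequences with no RH4 peak. Chromosome Y was among these sequences, with RH30-only sites at chrY:19567163-19567359 and chrY:11293505-11293701. The former was called in neither edited list and the latter with sgCCAAT2a only, over 153 bp. Just inside the rule were a site 7411 bp from ZSCAN2 that touched an RH4 peak without sharing a base, one at JAKMIP2 with an RH4 peak 9 bp away, one in the non-coding gene LOC102723696 at 13 bp, one 2648 bp from MCEMP1 at 26 bp and one at APOLD1 at 63 bp. Just outside were sites that shared 5 bp with an RH4 peak at H3-3A, which encodes the replacement histone H3.3, 11 bp in LOC124905083, 18 bp at PHF14, 24 bp in LINC01399 and 30 bp at a site 15066 bp from DTNB. RH30-only sites with no RH4 peak within 1000 bp numbered 362, of which 31.8% lay at gene ends.

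Along the chromosomes, the RH30-only share of control-shared sites was 49 of 215 (22.8%, 17.4 to 29.0%) on chromosome 17. It was 22 of 85 (25.9%) on chromosome 10, 21 of 91 (23.1%) on chromosome 6 and 6 of 22 (27.3%) on chromosome 18. It was lowest on chromosome 13, with 2 of 31 (6.45%), and stood at 7.37% on chromosomes 9 and 14, 7.46% on chromosome 16 and 7.48% on chromosome 2. The intervals of chromosomes 17, 10 (16.99 to 36.5%) and 6 (14.9 to 33.1%) lay above the overall 14.7%, and those of chromosomes 2, 9, 14, 16 and 19 (35 of 335, 10.4%, 7.39 to 14.2%) lay below it, among 23 intervals with no correction. The interval of chromosome 18 (10.7 to 50.2%) held it. On chromosome 17, 13 sites were over 100 kb from a gene, and they all lay between positions 21976364 and 26885513, a stretch around the centromere. In these sites 10 were called in both edited lists and 0 in neither. Of all RH30-only sites beyond 100 kb, 70.8% were in both and 18.5% in neither, and of all sgCtrl2 peaks there 15.5% and 81.2%.

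**Figure D2:**
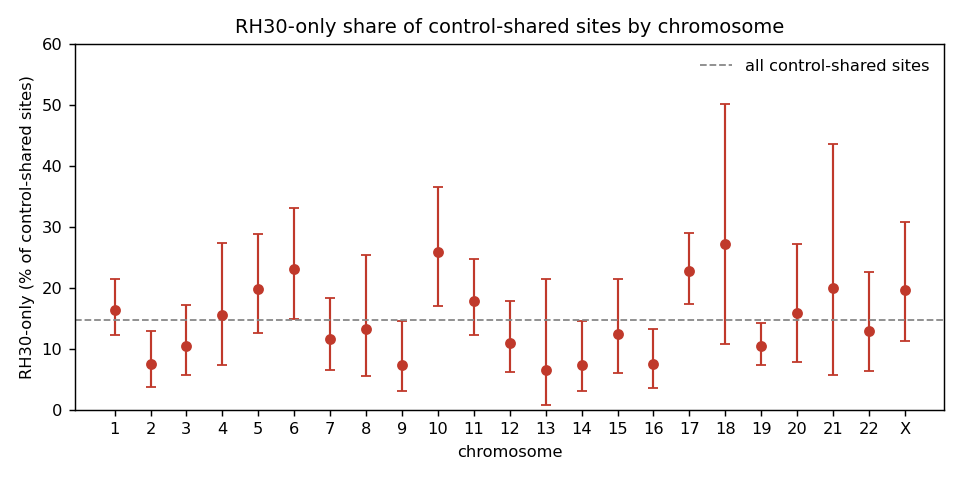
RH30-only share of control-shared sites (y axis, percent) for chromosomes 1 to 22 and X (x axis), covering 368 of the 381 sites; bars are exact 95% intervals over sites and the dashed line is the share over all control-shared sites. Chromosomes 17 (22.8%), 10 (25.9%) and 6 (23.1%) stand above the line at 14.7%, and chromosomes 2 (7.48%), 9 and 14 (7.37% each), 16 (7.46%) and 19 (10.4%) below it, each with its whole interval.

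Clusters, defined as at least 3 RH30-only sites each at most 100 kb from the next, held 21 of the 381 sites (5.51%, 3.44 to 8.30%). There were 6, and no RH4 peak lay inside any of them. With a gap of 500 kb there were 14 clusters, and with at least 5 sites there was none. The remaining sites were scattered, with a median gap of 2972987 bp between neighbours on a sequence.

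Of the 6 clusters, 4 had no protein-coding gene end under a site. The first, of 4 sites at chr1:143214638-143265822, lay 636563 bp from the nearest gene. Its span held 10 sgCtrl2, 4 sgCtrl1, 15 sgCCAAT2a and 14 sgCCAAT2b peaks. The second, of 4 sites at chr5:49601492-49667118, lay 729073 bp from EMB, a cell adhesion gene, and all 4 sites were called in both edited lists. The third, of 3 sites at chr17:26594796-26619949, lay 674164 bp from WSB1, and all 3 were in both edited lists. The fourth was on GL000225v1, a sequence assigned to chromosome 14 without a position on it, with 4 sites, 3 of them in both edited lists. Genes were not taken on such sequences, so its distance to a gene was not measured. Over these 4 clusters, 13 of 15 sites were called in both edited lists. Of all RH30-only sites over 100 kb from a gene or on other sequences, 54 of 76 (71.05%) were, against 16.35% of all sgCtrl2 peaks there. The sources used here do not give how reads that fit several places were treated, and its part in these clusters was not tested.

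The other 2 clusters lay in gene families. The HOXB cluster at chr17:48545051-48611286 had sites at HOXB2, HOXB4 and HOXB7, homeobox genes that pattern the body axis. None was called in both edited lists: HOXB2 was called with sgCCAAT2a only, by an overlap of 33 bp, and HOXB4 and HOXB7 in neither. Of all RH30-only sites at gene ends 27.3% were in both and 57.8% in neither, and of all sgCtrl2 peaks there 41.5% and 48.7%. With 3 sites the HOXB calls could not be told apart from these shares. Across the genome 3 HOX genes had an RH30-only site at an end and 2 an RH4-shared site. The histone cluster at chr6:27131861-27147055 had 3 sites at the divergent pairs H2AC11 and H2BC11, and H2AC12 and H2BC12, which supply core histones for new chromatin. Of these, 2 were in both edited lists and 1 in neither. Histone genes have near-identical copies, so reads there could be split between members, and the part of this in these calls was not tested. Across the genome 9 histone genes had an RH30-only site at an end and 17 had an RH4-shared site at an end. The 9 genes had 6 RH30-only sites, of which 3 were in both edited lists and 3 in neither, beside the gene-end shares just given. The H3C1 site overlapped the sgCtrl1 peak by 11 bp only, and an RH4 peak lay 867 bp from the H1-2 site. The family was chosen after its values were seen.

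The sites of highest place were mostly far from genes. Of the first 20 RH30-only sites in the sgCtrl2 list, up to place 1074, 12 lay over 100 kb from a gene or on other sequences, 5 at gene ends, and 17 were called in both edited lists. Places up to 1074 fall in band 1. In that band 67.9% of RH30-only sites and 72.2% of all sgCtrl2 peaks were in both edited lists, and 41.5% and 78.9% lay at gene ends. At place 14 stood chr1:633926-634122, inside MTATP6P1, a nuclear copy of a mitochondrial gene. It overlapped the edited peaks by 153 bp and 163 bp.

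RH30-only sites were called in the edited lists less often than RH4-shared sites, with intervals that did not overlap. The sgCCAAT2a list held 203 RH30-only sites (53.3%) and the sgCCAAT2b list 210 (55.1%), against 29.2% and 30.9% of all sgCtrl2 peaks, most of which had no sgCtrl1 peak. Both edited lists held 179 (47.0%, 41.9 to 52.1%; 26.8% of all sgCtrl2 peaks) and neither held 147 (38.6%, 33.7 to 43.7%; 66.7% of all). A further 24 were called with sgCCAAT2a only and 31 with sgCCAAT2b only. Of RH4-shared sites, 67.1% (65.2 to 69.1%) were in both and 19.97% (18.3 to 21.7%) in neither. Since RH30-only sites stood lower in the list, the sets were compared by location and by place.

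At gene ends the sets lay farthest apart. Of the 128 RH30-only sites there, 35 (27.3%, 19.8 to 35.9%) were in both edited lists and 74 (57.8%, 48.8 to 66.5%) in neither. Of the 1725 RH4-shared sites at gene ends, 66.1% were in both and 20.6% in neither, and of all 2900 sgCtrl2 peaks at gene ends 41.5% and 48.7%. Inside genes, 36.4% of RH30-only sites were in both and 46.8% in neither, against 68.4% and 17.8% of RH4-shared sites and 13.2% and 82.7% of all sgCtrl2 peaks. Within 10 kb of a gene 55.3% were in both, against 73.3% of RH4-shared sites and 21.4% of all. At 10 to 100 kb the shares in both were 66.1%, 75.9% and 16.4%. Beyond 100 kb, 46 of 65 (70.8%, 58.2 to 81.4%) were in both and 12 (18.5%) in neither, against 61.9% and 23.8% of 21 RH4-shared sites, a difference within the intervals, and 15.5% and 81.2% of all sgCtrl2 peaks. On other sequences 8 of 11 were in both and 0 in neither, against 28.1% and 49.1% of all. Pooled over place, the RH30-only share in both lists was below that of all sgCtrl2 peaks only at gene ends. Within bands of the list this held there in band 1 alone, with 54.5% against 72.2%. In band 2 the shares at gene ends were 23.3% and 21.4%, in band 3 6.25% and 3.39%, and in band 4 2 of 4 sites and 3.09%.

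**Figure D3:**
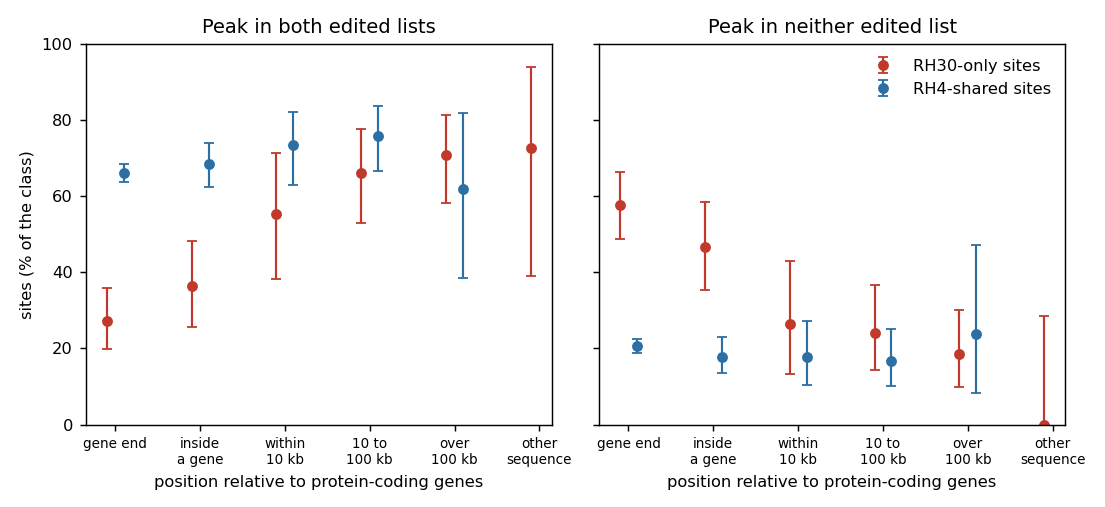
Share of sites (y axis, percent of the class) with a peak in both edited lists (left) and in neither (right), by position relative to protein-coding genes (x axis), for RH30-only and RH4-shared sites; bars are exact 95% intervals over sites. At gene ends 27.3% of RH30-only sites are in both lists against 66.1% of RH4-shared sites, and beyond 100 kb 70.8% against 61.9%.

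Within bands of the list, the intervals of the sets at gene ends lay apart in band 2 and overlapped in bands 1 and 3. In band 2, 53 of 86 RH30-only sites at gene ends (61.6%, 50.5 to 71.9%) were in neither edited list, against 42.9% (38.5 to 47.4%) of 501 RH4-shared sites and 69.4% of all 1099 sgCtrl2 peaks of that band at gene ends. In band 1 the shares were 5 of 22 (22.7%, 7.82 to 45.4%) and 10.8% (9.08 to 12.7%), against 14.8% of all. In band 3 they were 14 of 16 (87.5%, 61.7 to 98.5%) and 11 of 26 (42.3%, 23.4 to 63.1%), against 94.0% of all. The RH30-only values of bands 2 and 3 thus lay between RH4-shared sites and all sgCtrl2 peaks. Away from gene ends, 12.9%, 30.8% and 29.6% of RH30-only sites were in neither in bands 1, 2 and 3, against 11.5%, 27.6% and 11.4% of RH4-shared sites, and each pair of intervals overlapped. Of all sgCtrl2 peaks away from gene ends the shares were 17.1%, 54.3% and 88.5%. The edited libraries were the deepest, with 21.2 and 28.2 M tags against 13.9 and 10.5 M in the controls, while 1.22% and 1.46% of their tags fell in peaks against 2.40% and 3.10%. The part of this in the missing calls was not tested.

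**Figure D4:**
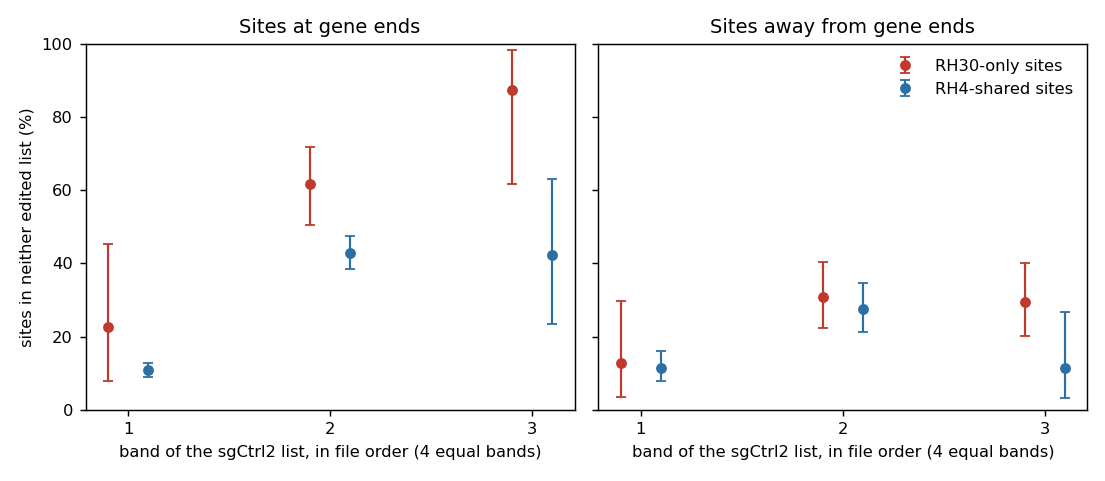
Share of sites in neither edited list (y axis, percent) by band of the sgCtrl2 list in file order (x axis), at gene ends (left) and away from them (right), for RH30-only and RH4-shared sites; bars are exact 95% intervals over sites. In band 2 at gene ends the values are 61.6% and 42.9%, and away from gene ends 30.8% and 27.6%.

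The authors' deposited tables list sgCtrl2 peaks that were at least 2.5-fold higher in sgCtrl2 at a Poisson p of 0.001, and since all 3 share the sgCtrl2 library their entries are not independent. The authors' deposited tables listed 107 RH30-only sites (28.1%) over sgCCAAT2a and 110 (28.9%) over sgCCAAT2b, against 61.9% and 60.7% of all sgCtrl2 peaks. The authors' deposited tables listed 90 (23.6%, 19.5 to 28.2%) over both edited libraries, against 52.4% of all sgCtrl2 peaks and 27.9% of RH4-shared sites. The authors' deposited table over sgCtrl1, a contrast between lists the choice of sites used, held 20 RH30-only sites (5.25%), 0.633% of RH4-shared sites and 36.2% of all sgCtrl2 peaks. At gene ends, the authors' deposited tables listed 60 of 128 RH30-only sites (46.9%, 38.0 to 55.9%) over both edited libraries, against 29.3% (27.1 to 31.5%) of RH4-shared sites and 44.6% of all sgCtrl2 peaks at gene ends, a value inside the RH30-only interval. Away from gene ends the RH30-only share was instead below the RH4-shared one. There the authors' deposited tables listed 30 of 253 RH30-only sites (11.86%, 8.145 to 16.49%) over both edited libraries. They so listed 22.95% (19.29 to 26.94%) of RH4-shared sites and 58.38% of all sgCtrl2 peaks away from gene ends. Beyond 100 kb the same deposited tables of the authors listed 0 of 65 over both edited libraries and 12 of 65 (18.5%) over sgCtrl1. Of RH4-shared sites there, the authors' deposited tables listed 2 of 21 (9.52%) and 0 of 21, each pair of intervals overlapping. Of all sgCtrl2 peaks there the shares were 57.2% and 76.7%. RH30-only and RH4-shared sites all had an sgCtrl1 peak by choice, which most sgCtrl2 peaks lacked. A share over sgCtrl1 below that of all peaks is therefore not a finding. Absence of a call and an entry in a table did not coincide. Of the 147 sites in neither edited list, the authors' deposited tables listed 70 (47.6%) over both edited libraries and 53 (36.1%) over neither, against 69.4% and 11.8% of all sgCtrl2 peaks in neither list.

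A total of 150 protein-coding genes had an RH30-only site at an end (0.749% of 20037). Of these, 132 had no RH4 peak at either end, 18 had one at an end too, and 10 had an RH4-shared site as well. At that share a list of 20 genes would seldom hold one, so a count of 0 says nothing about a list. RH4-shared sites were at the ends of 10.3% of all protein-coding genes. Lists of 20 cell cycle genes and 20 endoplasmic reticulum folding genes had 0 members with an RH30-only site and 13 and 15 with an RH4-shared site. NF-Y subunits and partners had 0 of 8 against 6, and CTCF and cohesin 0 of 8 against 1. The 19 genes of cholesterol and fatty acid synthesis had 1 (FASN) against 11. The 21 receptor kinase and growth factor genes had 1 (PDGFRB) against 1. Markers of blood (12 genes), liver (10) and epithelium (10) had neither kind of site and no RH4 peak.

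Among 25 genes of muscle identity and differentiation, 2 had an RH30-only site and 3 an RH4-shared site. MYOD1, the basic helix-loop-helix factor that commits cells to the muscle lineage and also a member of the 20 reported PAX3-FOXO1 targets, carried one at chr11:17719379-17719575, with its centre 94 bp before the gene. It stood at place 2364, overlapped the sgCtrl1 peak by 186 bp, and had no peak in either edited list. SIX4, a homeobox factor that acts early in muscle formation, carried one at chr14:60724235-60724431, at place 4009, with 157 bp shared with sgCtrl1 and no edited peak. The nearest RH4 peaks were 68739 bp and 74474 bp away. The authors' deposited tables listed neither site over any library, so the absence of a call in the edited cells was not matched by a listed difference in tags. MYOD1 was the only one of the 20 PAX3-FOXO1 targets with an RH30-only site, and 2 had an RH4-shared one. A list of 23 genes at 12q13 to 12q15, a region often gained in rhabdomyosarcoma, had 0.

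PDGFRB, the receptor for platelet-derived growth factor B, carried its site at chr5:150155745-150155941, over the upstream motif printed above. It was called in neither edited list, and the authors' deposited tables listed it over sgCCAAT2a and over sgCCAAT2b but not over sgCtrl1. FASN, which builds palmitate, carried one at chr17:82098225-82098421, called with sgCCAAT2b by 132 bp and not with sgCCAAT2a. An RH4 peak lay 78 bp away, and the authors' deposited tables listed the site over both edited libraries.

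Other developmental regulators were among the genes and were singled out after their values were seen. ISL1 and SOX11, factors of neuronal and heart development, carried sites at chr5:51383332-51383528 and chr2:5692170-5692366, in neither edited list and over 2 Mb from an RH4 peak (2926962 bp and 2172905 bp). EBF1 and NFIA were called with sgCCAAT2a only, each over 153 bp, and their nearest RH4 peaks were 1018874 bp and 758 bp away. Sites at CBX2, a Polycomb subunit, VIM, which encodes the filament protein vimentin, and PHGDH, the entry enzyme of serine synthesis, were in neither edited list as well. At CBX2 and VIM the authors' deposited tables listed the site over both edited libraries, and at PHGDH over sgCCAAT2a alone. Of all RH30-only sites at gene ends 57.8% were in neither edited list, and of all sgCtrl2 peaks there 48.7%.

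The 10 gene-end sites of highest place were then taken among those called in both edited lists, and likewise among those in neither. The former lay at FAM72B and SRGAP2C, NR2C2, PNRC2, H2AC11 and H2BC11, GSTO2, NUAK2, MEAK7, ZNF440, LRRC8D and SLFN12, at places 60 to 1583. NR2C2 is an orphan nuclear receptor, PNRC2 a nuclear receptor coactivator, NUAK2 a kinase related to AMPK, and LRRC8D a subunit of volume-regulated anion channels. The FAM72B site, at place 60, overlapped the edited peaks by 77 bp and 49 bp. The PNRC2 site overlapped them by 153 bp and 152 bp, nearly the whole width of the edited peaks. The authors' deposited tables listed NR2C2, GSTO2, NUAK2 and LRRC8D over both edited libraries although the peak was called there. Of sites at any location in both edited lists, the authors' deposited tables so listed 5.03% of RH30-only sites and 15.3% of all sgCtrl2 peaks.

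Those in neither lay at HOXB7, FADS2, IL11, CCR10, MRPL38, PPP2R2D, HGH1, BACC1 and RNASEK, FADS3 and USP2, at places 582 to 1829. FADS2 and FADS3 are neighbouring fatty acid desaturase genes, IL11 encodes a cytokine of the interleukin-6 family, CCR10 a chemokine receptor, MRPL38 a mitochondrial ribosomal protein and USP2 a deubiquitinase. The authors' deposited tables listed 9 of these 10 over both edited libraries, and FADS2 over sgCCAAT2a alone. Of gene-end sites in neither list, the same deposited tables of the authors listed 62.2% of RH30-only sites and 67.7% of all sgCtrl2 peaks over both. HOXB7 was also listed over sgCtrl1 in the authors' deposited table, so its level differed between the controls too. At CCR10 an RH4 peak lay 851 bp away and at FADS2 1519 bp, while at PPP2R2D the nearest was 636805 bp away.

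**Figure D5:**
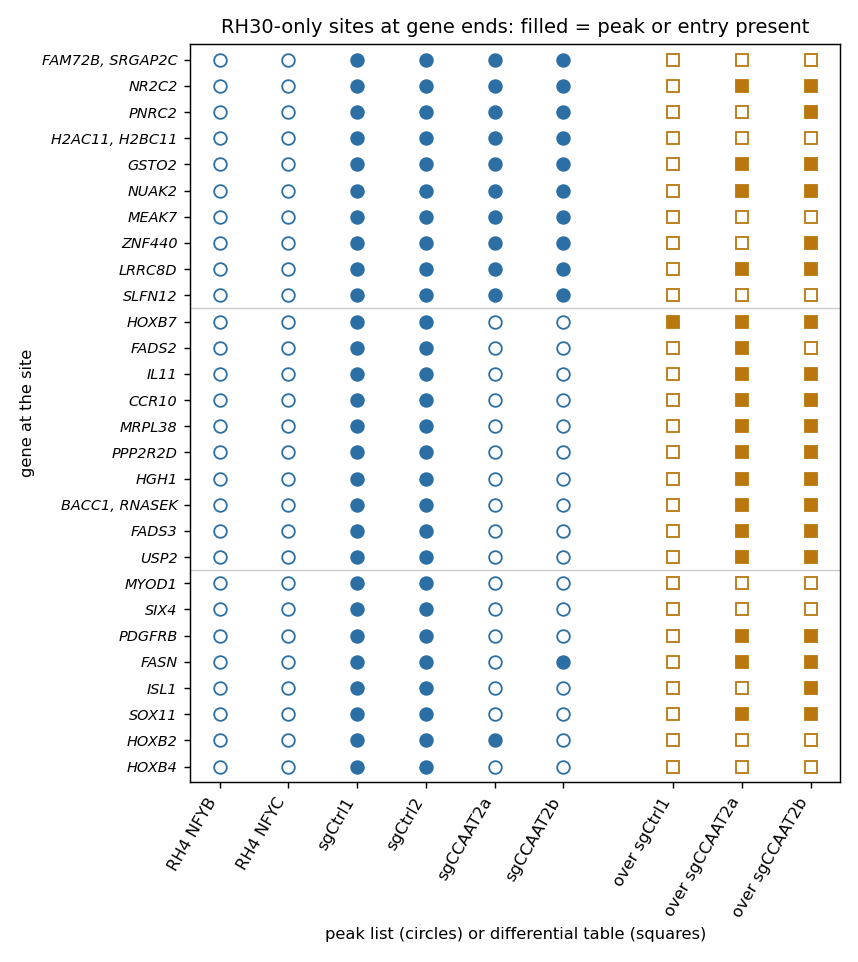
Presence of a peak in each of the 6 lists (circles) and of an entry in each of the 3 differential tables (squares) at RH30-only sites at gene ends, one gene or gene pair per row; filled symbols mark presence. The top block holds the 10 sites of highest place in both edited lists, the middle block the 10 in neither, and the bottom block genes described in the text; the first 4 columns are fixed by the choice of sites.

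Sites inside genes included MYOM1, which encodes an M-band protein of the sarcomere, at chr18:3230471-3230667, over 2 Mb (2517690 bp) from an RH4 peak. It was called in both edited lists over 153 bp and 163 bp. INSR, the insulin receptor gene, carried one at chr19:7198203-7198399, in neither edited list, and the authors' deposited tables listed it over both edited libraries and over sgCtrl1. HOXC4 carried one inside the gene that was in both edited lists. These 3 were chosen after their values were seen.

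Promoters under RH30-only sites held the NF-Y motif more often than promoters at large and less often than those under RH4-shared sites. RefSeq promoters of 300 bases (250 before the start and 50 after) were listed for 122 of the 150 genes. Separately, every listed promoter of any gene type that overlapped an RH30-only site was taken. That gave 131 windows of 122 genes, which were not limited to the 150, and a gene can have several starts. CCAAT on either strand was in 92 of 131 (70.2%, 61.6 to 77.9%), against 91.4% (90.1 to 92.5%) of 2136 windows under RH4-shared sites and 34.6% of all 35116 listed promoters. At least 2 copies were in 29.0% against 58.4% and 10.8%. A copy lay inside the peak in 58.8% against 83.4%. With overlap of 50% of both peaks required, 85.8% of 456 windows held the motif.

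The motif was also unequal between sites by their calls in the edited cells. In windows under RH30-only sites called in both edited lists, 32 of 36 (88.9%, 73.9 to 96.9%) held CCAAT, and in those called in neither 37 of 70 (52.9%, 40.6 to 64.9%). Under RH4-shared sites the shares were 94.95% and 80.5%. GGGCGG, the GC box read by SP factors, searched on both strands, was in 67.9% of RH30-only, 83.0% of RH4-shared and 45.0% of all promoters. TATAAA was in 8.40%, 3.56% and 11.5%. The E-box CACGTG was in 7.63%, 10.3% and 7.26%, and the CRE TGACGTCA in 2.29%, 3.79% and 1.85%. For both of these motifs the interval of the RH30-only windows (3.72 to 13.6% and 0.475 to 6.55%) held the other shares. Median GC content was 64.3%, 65.3% and 58.7%. A match describes these letters and is not a site of binding.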

How the data were processed

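The analysis used 6 deposited peak lists (RH4 NFYB and NFYC, and 4 RH30 NFYB libraries) and 3 differential tables. The IgG controls (2 libraries) were not used here. The authors deposited peak starts and ends on hg38 and no peak heights. The score column deposited by the authors holds 1 constant value per file, so it could not rank or filter peaks. Each RH30 library had its own peak calls, made per the file headers by HOMER findPeaks (factor style, 2-fold over an input that the headers do not identify, 4-fold over the surrounding 10000 bp, Poisson p 0.0001). Per the file headers, the tables come from HOMER on the sgCtrl2 list (fold 2.5, Poisson p 0.001). For RH4, the sources used here give no caller and no depth, and the entries carry a further set of coordinates. The submitters' processing notes also name FastQC, Trimmomatic, Bowtie2, MACS2, bedtools and deepTools.

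Overlaps of at least 1 bp were counted with Python 3.11.15 and pandas 2.3.3. Exact intervals came from scipy 1.17.1. On simulated data, 20 of 20 overlap counts equalled those of bedtools 2.31.1 and 12 of 12 planted clusters were found. Genes were the 20037 protein-coding genes of RefSeq (GRCh38.p14). Starts with strand were listed for 15843 of them, so location was taken from either gene end, and listed starts were an alternative. The sites and gene lists were chosen with earlier results of these data known. Named genes were list members with a site, the genes at the 10 gene-end sites of highest place in both and in neither edited list, genes of the clusters, and those at the 5 sites nearest to and the 5 just beyond the RH4 threshold; all other names were picked with their values in view, as the text says. Some items are not reported here. Alternatives changed the overlap, the RH4 distance, the list counted on, the gene window, the cluster gap and the motif window.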

Additional observations from a re-analysis of the deposited data

How the results depend on the processing

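In all, 55 alternatives were run for 10 results, and 34 moved the value by less than its interval (for counts, by less than 1.5 times). With overlap of 50% of both peaks the sites numbered 651, 28.4% of control-shared sites, of which 60.5% lay at gene ends and 33.6% were in neither edited list, and CCAAT was in 85.8% of their promoters. The cause was not tested. In the first 2 of 4 bands of the list there were 246 sites (10.3%), with 43.9% at gene ends and, in the authors' deposited tables, 31.7% listed over both edited libraries. Absence from RH4 NFYB alone gave 20.7%. A window of 3000 bp gave 39.9% of RH30-only and 82.7% of RH4-shared sites at gene ends, 500 bp gave 73.7% of RH4-shared sites, and listed starts only, chosen after seeing the data, 73.1%. RH30-only sites lay at gene ends less often than RH4-shared sites under every alternative run for both. Within 100 kb of a gene, also chosen after seeing the data, 41.0% were in both edited lists and 44.3% in neither. A cluster gap of 500 kb gave 14 clusters with 13.1% of sites, and at least 5 sites per cluster gave 0 clusters and 0% of sites. In the 100 bases before the start, 51.2% of promoters held CCAAT. No paired analysis was possible because each guide has 1 library and no result comes from a test. The lists carry no heights, so weak and strong sites could be told apart only by place in the file, and a missing call in RH4 could not be set against its depth.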

Other observations

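Some RH30-only sites lay at genes that belong to duplicated segments or have close copies, and they were picked out after their values were seen. At 7 such genes (FAM72B, GTF2IRD2, STAG3L3, PMS2P5, PMS2P3, GUSBP2 and FAM86B1) there were 7 sites, 5 of them in both edited lists and 2 in neither. Of all RH30-only sites 47.0% were in both and 38.6% in neither, and of all sgCtrl2 peaks 26.8% and 66.7%. With genes picked in this way, no share for duplicated genes can be read from the count. The PMS2P5 site was called in both over 153 bp and 163 bp, and the PMS2P3 site in neither. Pseudogenes were overlapped by 16 of 381 RH30-only sites (4.20%, 2.42 to 6.73%) and by 1.17% (0.769 to 1.72%) of RH4-shared sites. Reads from close copies may be assigned to either, and the part of this in these calls was not tested.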
